A study of Rattus norvegicus with 9 samples.

Results

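Adipocytes lie in a sheath of fat around the superior mesenteric artery (SMA), the vessel that supplies most of the small intestine, and some of their RNA can come along when the artery is dissected. The expression of 10 fat cell genes was followed here: Adipoq, Lep, Plin1, Fabp4, Cidec, Cidea, Ucp1, Cfd, Lipe and Pparg. They were chosen by symbol, as known genes of white and brown adipocytes, out of 37203 gene symbols in the table of counts. All 10 passed the filter on low counts. The SMAs came from Sprague-Dawley rats, which per the labels were 8 weeks old and weighed 220 to 240 g. There were 9 libraries in 3 groups of 3: a normal group, a group after 1 h of ischemia and a group after 4 h of ischemia. Ischemia was a hemorrhage model, in which anaesthetized rats were bled from a catheter in the femoral artery, and the rats carried no engineered allele. The tissue was taken whole. In such bulk samples, fewer cells of a type and less RNA per cell cannot be told apart.

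White adipocytes store triglyceride in one large droplet and release fatty acids from it in answer to catecholamines, which arrive from sympathetic nerves and the blood. They also secrete hormones. Brown adipocytes hold many small droplets and burn fat for heat through the uncoupling protein Ucp1. The fat around vessels can be white, brown or mixed, depending on the vessel, and its secretions act on the smooth muscle of the wall.

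The libraries held from 13114273 to 15504240 counts, and 1 CPM (the unit of levels here, a count scaled for library size and composition) stood for 12.1 to 17.9 counts. The libraries differed in tissue makeup within each group. All 12 smooth muscle genes of a fixed list were detected in every library, and their summed level was 12781, 54861 and 57684 CPM in normal replicates 1 to 3, 29414, 53320 and 14708 CPM at 1 h, and 79606, 57959 and 27799 CPM at 4 h. The 19 genes of sympathetic and peripheral nerve summed to 4364, 241 and 1117 CPM in the normal group, 8847, 2855 and 9586 CPM at 1 h, and 470, 1912 and 9581 CPM at 4 h. Normal replicate 1 therefore stood apart from the other normal libraries in both, and 1 h replicates 1 and 3 and 4 h replicate 3 were rich in nerve transcripts. Of the nerve genes, Dbh, Nefl, Phox2a and Slc6a2 were each at 0 in 1 library. Genes of the mitochondrial genome took 9.10% to 29.3% of all counts.

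Adipoq codes for adiponectin, the most abundant hormone of fat cells, and it served as the anchor to which the other genes were compared. Its level was 216, 39.5 and 57.6 CPM in the normal replicates 1 to 3, 165, 45.9 and 202 CPM at 1 h, and 35.5, 84.1 and 64.4 CPM at 4 h. Normal replicate 1 and 1 h replicates 1 and 3 were high, the other 6 libraries lay at 84.1 CPM or below, and the groups overlapped. The lowest and the highest library differed 6.09-fold.

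Cfd codes for adipsin (complement factor D), a protease that fat cells release into the blood. The order of libraries was the same as for Adipoq except that the libraries ranked 7 and 8 changed places, with 266, 49.6 and 73.4 CPM in the normal group, 176, 43.1 and 198 CPM at 1 h, and 30.8, 97.6 and 80.0 CPM at 4 h. Across the 9 libraries, the Pearson correlation of its log2 CPM with that of Adipoq was 0.981 (exact permutation p = 1.10e-05, two-sided, 9.92e-05 after Benjamini-Hochberg adjustment over the 9 genes compared with Adipoq) and Spearman's rho was 0.983 (exact permutation p = 4.96e-05, adjusted 0.000446). Without the 2 libraries farthest from the median of Adipoq, r was 0.967. All libraries share the scaling of counts, which enters both genes of each pair.

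Because Adipoq and Cfd varied together, their promoters are shown, from RefSeq on build GRCr8, 250 bases before to 50 bases after the start of the gene, 5′ to 3′ along the gene. Neither holds any of the motifs searched, which were AGGTCA (the half-site of nuclear receptors such as Pparg), TTGCGNAA (a C/EBP site) and TATAAA (a core promoter box), each on both strands. Those letters occur in 16.2%, 0.846% and 14.2% of the 33469 promoters of the same length, and the absence of a match refers to this window only.
Adipoq, chr11:91240120-91240419, minus strand: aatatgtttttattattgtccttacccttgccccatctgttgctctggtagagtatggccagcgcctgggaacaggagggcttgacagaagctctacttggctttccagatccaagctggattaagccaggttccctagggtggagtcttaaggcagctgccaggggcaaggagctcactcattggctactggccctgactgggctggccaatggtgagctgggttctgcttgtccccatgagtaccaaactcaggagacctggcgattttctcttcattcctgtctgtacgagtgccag
Cfd, chr7:10465447-10465746, minus strand: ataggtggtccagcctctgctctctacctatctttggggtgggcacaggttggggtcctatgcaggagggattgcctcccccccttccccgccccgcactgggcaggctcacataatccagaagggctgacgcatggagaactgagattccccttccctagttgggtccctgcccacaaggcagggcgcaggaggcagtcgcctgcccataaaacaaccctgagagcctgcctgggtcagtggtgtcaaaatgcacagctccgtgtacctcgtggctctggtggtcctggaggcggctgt

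Fabp4, the fatty acid binding protein of fat cells, is also made by endothelium of small vessels and by macrophages. It was at 1484, 331 and 240 CPM in the normal group, 934, 645 and 1162 CPM at 1 h, and 197, 747 and 536 CPM at 4 h. The same 3 libraries were the highest as for Adipoq (r = 0.872, exact permutation p = 0.00395, adjusted 0.0122; rho = 0.917, adjusted exact permutation p = 0.00590), and r was 0.752 without the 2 farthest libraries. The 12 endothelial genes summed to 1004 to 1974 CPM in the normal group, 914 to 1420 CPM at 1 h and 821 to 1284 CPM at 4 h, and none was at 0 in a library. The 12 macrophage genes summed to 64.0 to 258 CPM, 126 to 259 CPM and 49.5 to 144 CPM in these groups, with Marco at 0 in 2 libraries. The part of these cells in the Fabp4 level was not tested.

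Pparg is the nuclear receptor that drives fat cell differentiation and switches on most of the other genes described here. It was at 37.0, 10.3 and 4.21 CPM in the normal group, 32.8, 8.69 and 17.5 CPM at 1 h, and 4.13, 12.1 and 8.12 CPM at 4 h. The 3 libraries high in Adipoq were again on top (r = 0.855, exact permutation p = 0.00407, adjusted 0.0122; rho = 0.833, adjusted exact permutation p = 0.0242; r = 0.808 without the 2 farthest libraries).

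Lipe, the hormone-sensitive lipase that cleaves diglyceride when catecholamines act on the cell, had 348, 102 and 50.8 CPM in the normal group, 321, 214 and 341 CPM at 1 h, and 92.5, 204 and 199 CPM at 4 h. All 3 libraries at 1 h lay above all 3 at 4 h. Its correlation with Adipoq passed as well (r = 0.769, exact permutation p = 0.0162, adjusted 0.0242; rho = 0.817, adjusted exact permutation p = 0.0242) and was 0.629 without the 2 farthest libraries.

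Plin1 and Cidec both sit on the lipid droplet. Plin1 (perilipin) guards the droplet against lipases until it is phosphorylated, and Cidec helps small droplets to merge into a large one. Plin1 was at 198, 50.9 and 14.3 CPM in the normal group, 229, 27.1 and 245 CPM at 1 h, and 14.7, 20.8 and 96.9 CPM at 4 h. Cidec was at 100.2, 25.6 and 7.02 CPM in the normal group, 55.3, 19.1 and 162 CPM at 1 h, and 9.18, 15.0 and 30.6 CPM at 4 h. From the lowest to the highest library, Plin1 spanned 17.2-fold and Cidec 23.1-fold, against 6.09-fold for Adipoq. With Adipoq, r was 0.818 for Plin1 (exact permutation p = 0.0123, adjusted 0.0222) and 0.836 for Cidec (exact permutation p = 0.00644, adjusted 0.0145). By rank, rho was 0.70 for Plin1 and 0.733 for Cidec, and the adjusted exact permutation p was 0.0649 and 0.0560, so that these relations did not pass by rank. Without the 2 farthest libraries r was 0.663 and 0.595.

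**Figure D1:**
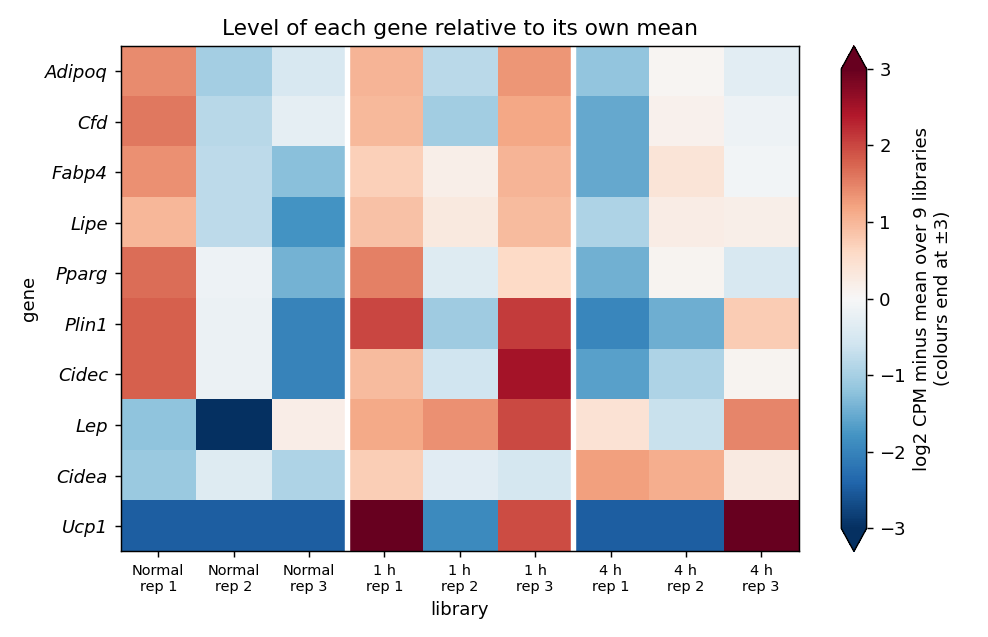
Level of each of the 10 fat cell genes (rows) in each of the 9 libraries (columns), as log2 CPM minus the mean of that gene over all libraries, with colours ending at 3 in either direction. In 7 rows, from Adipoq to Cidec, normal replicate 1 and 1 h replicates 1 and 3 are red, while Lep, Cidea and Ucp1 follow other libraries.

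For 7 of the 10 genes, then, the same 3 libraries were the highest: normal replicate 1 and 1 h replicates 1 and 3. These and 4 h replicate 3 were also the 4 libraries with the lowest smooth muscle sums and the highest nerve sums. In 4 h replicate 3, the nerve sum was 9581 CPM, next to 9586 CPM in 1 h replicate 3, while the 10 fat cell genes summed to 1109 CPM against 2373 CPM. The part of tissue makeup in these levels was not tested as such. Fits of each gene that hold a score of nerve or fat content are given with the comparisons and further below.

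**Figure D2:**
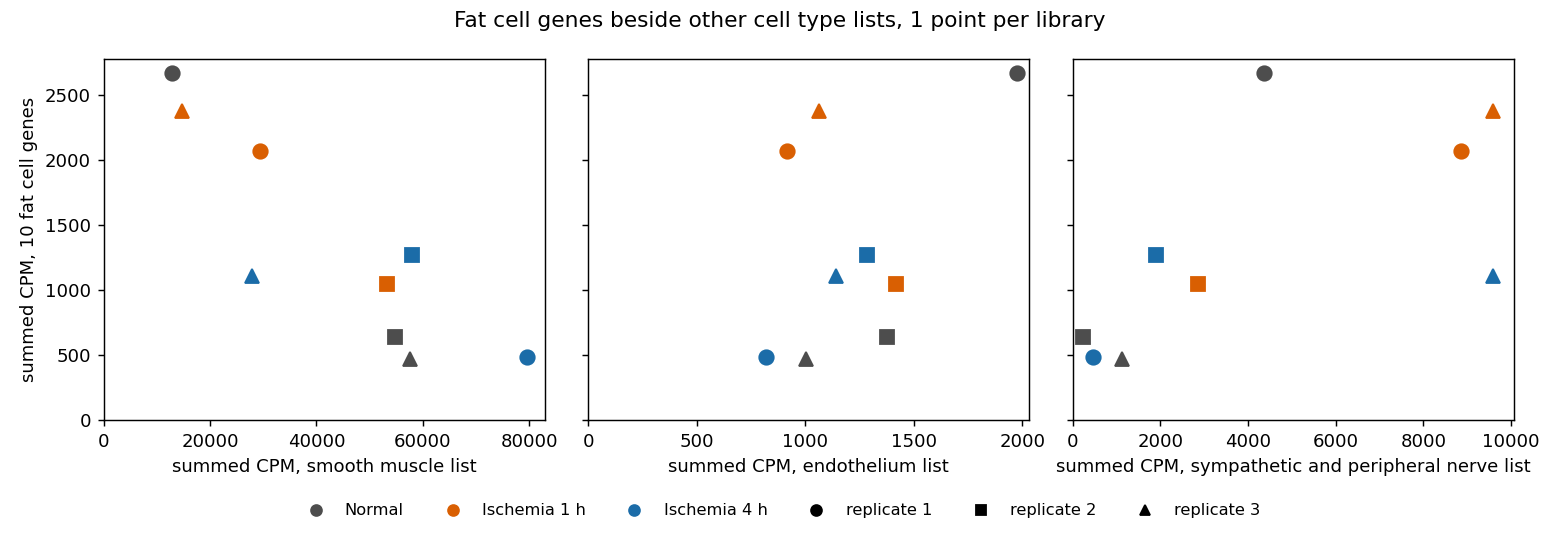
Summed CPM of the 10 fat cell genes (vertical axis) against summed CPM of the smooth muscle, endothelium and nerve lists (horizontal axes), 1 point per library, with colours for groups and shapes for replicates. The 3 libraries with 2070 to 2669 CPM of fat cell genes have smooth muscle sums from 12781 to 29414 CPM, and 4 h replicate 3 has a high nerve sum without a high sum of fat cell genes.

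Lep codes for leptin, the hormone that reports the size of fat stores. Its relation to Adipoq did not pass the test (r = 0.281, exact permutation p = 0.508, adjusted 0.508; rho = 0.15, adjusted exact permutation p = 0.708). The normal libraries held 26, 0 and 55 counts (1.46, 0 and 4.06 CPM), those at 1 h held 119, 140 and 231 counts (7.96, 9.36 and 14.2 CPM), and those at 4 h held 58, 26 and 152 counts (4.80, 2.16 and 10.04 CPM). All 3 libraries at 1 h lay above all 3 normal libraries, and those at 4 h overlapped with both. Normal replicate 1, which was the highest in Adipoq, was low in Lep.

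Cidea, a lipid droplet protein linked to Cidec and abundant in brown fat, showed another order again (r = -0.27 with Adipoq, exact permutation p = 0.472, adjusted 0.508; rho = -0.42, adjusted exact permutation p = 0.347; r = 0.279 without the 2 farthest libraries). Its level was 18.0, 29.8 and 20.4 CPM in the normal group, 64.7, 30.6 and 27.0 CPM at 1 h, and 92.2, 82.7 and 46.7 CPM at 4 h. All 3 libraries at 4 h lay above all 3 normal libraries. The highest, 4 h replicate 1, was the lowest of all 9 for Adipoq, Cfd, Fabp4 and Pparg.

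Ucp1, the uncoupling protein that defines brown and beige fat, was found in few libraries. It had 0 counts in each of the 3 normal libraries. At 1 h the counts were 1272, 1 and 46 (85.1, 0.067 and 2.83 CPM). After 4 h of ischemia, 2 libraries held 0 counts and replicate 3 held 555 (36.6 CPM). A count of 0 allows up to 3 counts in a library, which averaged 0.203 CPM over the normal group, and this covers counting error only. Against that floor, the mean at 1 h was at least 145-fold higher and the mean at 4 h at least 60.2-fold higher. Both means rested on 1 library each, 1 h replicate 1 and 4 h replicate 3. These were also rich in nerve transcripts. So was 1 h replicate 3, which had the highest nerve sum (9586 CPM) and 2.83 CPM of Ucp1. Normal replicate 1 had a nerve sum of 4364 CPM and 0 counts of Ucp1. In the fits described below, a nerve score gave the lowest log2 fold change of Ucp1 of all settings. It was 4.19 at 1 h and 3.48 at 4 h, against 11.7 and 10.5 with group only. All of these fold changes depend on how counts of 0 are handled, and the part of nerve content in the Ucp1 level was not tested. The correlation of Ucp1 with Adipoq was 0.398 (exact permutation p = 0.290, adjusted 0.372; rho = 0.329, adjusted exact permutation p = 0.437).

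**Figure D3:**
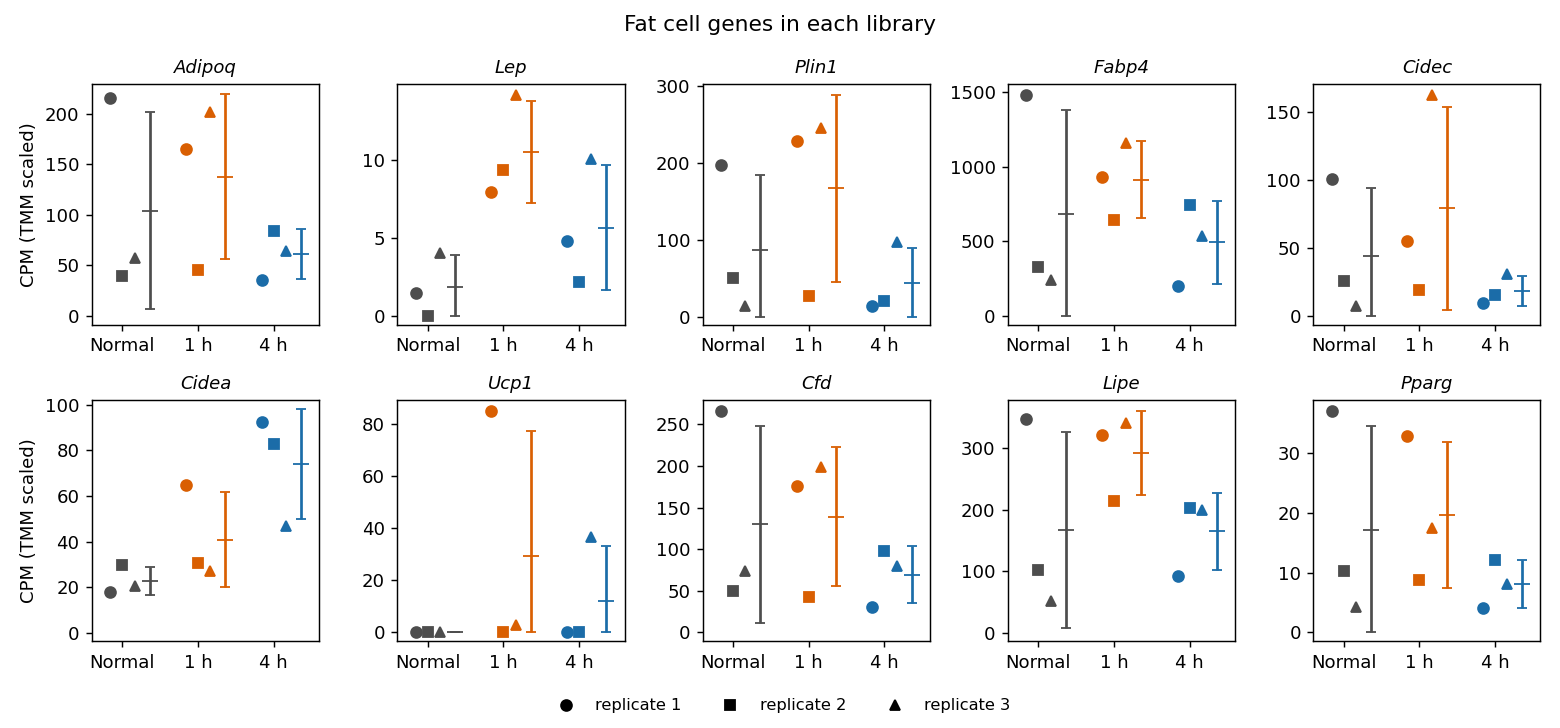
CPM of each of the 10 fat cell genes in each library, with 1 panel per gene, groups on the horizontal axis and shapes for replicates. Horizontal ticks and bars beside the points give the mean and SD over 3 libraries, drawn no lower than 0. Most panels show 1 normal library far above the other 2, Cidea is higher in every 4 h library than in every normal one, and Ucp1 is at 0 in the normal group.

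The promoters of Lep and Ucp1 are shown because they were the only ones, apart from 1 of the Pparg promoters, that held a motif searched. A promoter was found for 8 of the 10 genes, 9 promoters in all, and AGGTCA was in 0 of the 9. The capitals mark TTGCGCAA in Lep, which begins 69 bases before the start and reads the same on both strands, and TATAAA in Ucp1, which begins 30 bases before the start. The other match was TATAAA on the reverse strand 29 bases after the start of a Pparg promoter. A match is a description of the letters and not evidence of binding.
Lep, chr4:58626288-58626587, plus strand: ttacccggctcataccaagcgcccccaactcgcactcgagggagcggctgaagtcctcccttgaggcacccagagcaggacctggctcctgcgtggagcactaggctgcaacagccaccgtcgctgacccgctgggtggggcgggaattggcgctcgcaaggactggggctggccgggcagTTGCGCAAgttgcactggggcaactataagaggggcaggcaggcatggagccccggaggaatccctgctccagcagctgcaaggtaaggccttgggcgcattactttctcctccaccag
Ucp1, chr19:41721372-41721671, minus strand: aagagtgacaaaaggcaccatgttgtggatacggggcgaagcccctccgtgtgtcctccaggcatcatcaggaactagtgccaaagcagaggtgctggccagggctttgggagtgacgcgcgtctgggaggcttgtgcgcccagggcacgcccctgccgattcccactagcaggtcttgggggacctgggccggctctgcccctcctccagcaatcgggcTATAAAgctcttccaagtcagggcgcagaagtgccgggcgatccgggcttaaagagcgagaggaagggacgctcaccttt

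To ask which of these genes changed after hemorrhage, the counts of all 15482 genes that passed the filter were fitted together, with group as the only term, by the quasi-likelihood test of edgeR. A call needed a Benjamini-Hochberg adjusted p, over all genes tested, of less than 0.05 and a fold change of more than 1.5. At 1 h against normal, 0 of the 10 fat cell genes were called, where 0.0581% of all genes were, and 0 of 10 had an unadjusted p under 0.05, against 16.7% of all genes. DESeq2 also called 0 of 10 in this comparison, where it called 4.8% of the genes to which it gave an adjusted p. The fitted change was above 0 for 10 of 10 genes, with a median log2 fold change of 0.82, whereas the median over all genes was -0.0076 and 49.4% of all genes were above 0. Since the genes vary together from library to library, they are not 10 separate observations. The median moved with single libraries: it was 1.81 without normal replicate 1, 0.35 without normal replicate 3, 0.52 without 1 h replicate 1 and 0.41 without 1 h replicate 3. In the last 3 of these fits, and without normal replicate 2 (median 0.59), 8 of 10 genes were above 0.

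Lep had a log2 fold change of 2.51 at 1 h (SE 1.16, edgeR adjusted p = 0.310), from a mean of 1.84 ± 2.06 CPM (SD, n = 3) to 10.5 ± 3.27 CPM (SD, n = 3). For Adipoq it was 0.40 (SE 0.73, edgeR adjusted p = 0.787), for Plin1 0.93 (SE 1.13) and for Lipe 0.81 (SE 0.65). The adjusted p of Ucp1 was 0.303 by edgeR, and its fitted fold change depends on how counts of 0 are handled. The groups did not overlap for 2 of 10 genes, Lep and Ucp1, both higher at 1 h, where 12.8% of all genes were higher in this way. For Ucp1, the lowest library at 1 h held 1 count, which is under the floor.

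At 4 h against normal, 0 of 10 genes were called by edgeR, where 0.0904% of all genes were. Cidea alone had an unadjusted p under 0.05 by edgeR, against 12.4% of all genes. Its mean was 22.7 ± 6.22 CPM (SD, n = 3) in the normal group and 73.9 ± 24.0 CPM (SD, n = 3) at 4 h, a log2 fold change of 1.70 (SE 0.41, edgeR adjusted p = 0.161), and it was the 1 gene of 10 whose groups did not overlap, where 7.93% of all genes were higher without overlap. DESeq2 called Cidea (adjusted p = 0.00540), with 4.08% of all genes called by that tool, so that the call depends on the test. Over the other alternatives, all fitted with edgeR, the adjusted p of Cidea ranged from 0.0772 to 0.379.

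Of the remaining genes at 4 h, Lep was above 0 with a log2 fold change of 1.62 (SE 1.13, edgeR adjusted p = 0.580) and Cidec was lowest at -1.28 (SE 1.02, edgeR adjusted p = 0.626). Pparg was at -1.08 (SE 0.81) and Adipoq at -0.77 (SE 0.74). In all, 3 of 10 genes were above 0, where 52.3% of all genes were, and the median was -0.62 against 0.027 over all genes. This direction rested on normal replicate 1: without it, 10 of 10 genes were above 0 at 4 h with a median of 0.61. The median was -0.93 without normal replicate 2, -0.97 without normal replicate 3 and -0.32 without 4 h replicate 1.

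**Figure D4:**
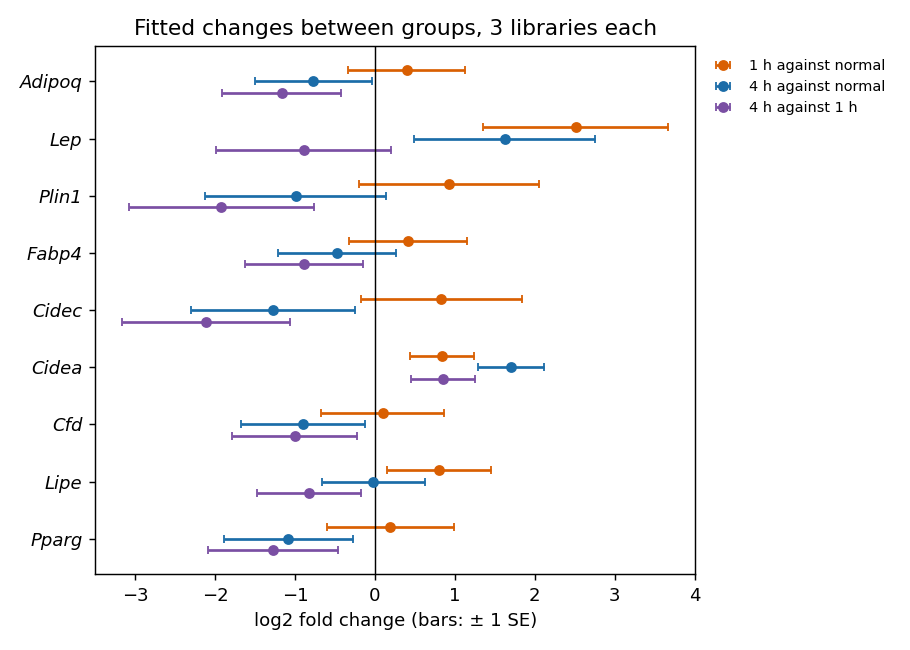
Log2 fold changes with bars of 1 SE for 9 of the fat cell genes (Ucp1 is left out, since its fold rests on counts of 0) in the 3 comparisons between groups of 3 libraries. Cidea at 4 h against normal lies farthest from 0 in units of its SE, at 1.70 with an SE of 0.41, and it was not called by edgeR (adjusted p = 0.161).

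Between the times, 0 of 10 genes were called at 4 h against 1 h by edgeR, as were 0% of all genes, and DESeq2 called 0 of 10 as well. No member had an unadjusted p under 0.05 by edgeR, against 2.58% of all genes. All but Cidea were lower at 4 h, with a median log2 fold change of -1.08 against -0.04 over all genes, and the median was -0.70 without 1 h replicate 3. Cidec was at -2.11 (SE 1.05, edgeR adjusted p = 0.856), Plin1 at -1.92 (SE 1.16) and Cidea at 0.86 (SE 0.40). Lipe was the 1 gene whose groups did not overlap, lower at 4 h, with 3.04% of all genes lower and 3.2% higher in this way, and its log2 fold change was -0.82 (SE 0.65, edgeR adjusted p = 0.856). With the 3 groups tested together, edgeR called 0 of 10 genes (0.0388% of all genes) with 1 at an unadjusted p under 0.05, where 11.4% of all genes were, and DESeq2 called 1, Cidea, with 4.39% of all genes.

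The directions were also taken from fits that held a score of tissue makeup. With the mean log2 CPM of the nerve list in the fit, the median of the 10 genes was -0.18 at 1 h with 4 of 10 above 0, and -0.38 at 4 h. A separate list of fat cell genes (Adig, Tusc5, Acvr1c, Aqp7, Gpd1, Plin4, Mrap, Agpat2 and Sncg) gave a fat score, its mean log2 CPM. The list did not move as 1 at 4 h against normal. Of its 8 tested genes, 4 were above 0 and 4 below, from -1.28 for Tusc5 to 0.94 for Plin4. With the fat score in the fit, the median of the 10 genes was also -0.18 at 1 h with 4 of 10 above 0, and -0.11 at 4 h with 5 of 10 above 0. The fat score was 4.58 in normal replicate 1, 4.68 and 4.73 in 1 h replicates 1 and 3, and 4.18 in 4 h replicate 3. These libraries also had the highest nerve sums, and the score was 2.70 to 3.66 in the others. The part of fat apart from nerve was not tested. The nerve list itself had a median log2 fold change of 3.90 at 1 h and 2.69 at 4 h. The fit with its score therefore cannot tell nerve content from group. A gene of the fat list, Agpat2, had r = 0.948 with Adipoq. A score of such genes takes up part of the change of the 10 genes by construction. The log2 fold change of Cidea at 4 h was 1.65 beside the fat score and 1.71 beside the nerve score.

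Levels were also set against that list directly, as the log2 CPM of the gene minus the mean log2 CPM of the list. On this scale Adipoq was at 2.74 ± 0.62 (SD, n = 3) in the normal group, 2.498 ± 0.56 at 1 h and 2.42 ± 0.57 at 4 h, so that the groups differed by less than the spread between libraries. On the same scale the normal libraries had -0.39, 1.62 and 1.53 for Cidea, those at 1 h had 1.34, 1.29 and 0.04, and those at 4 h had 3.83, 2.94 and 1.37. The 4 h libraries then overlapped with the normal ones, since 4 h replicate 3 lay below 2 normal libraries. The list stood at 4.18 in 4 h replicate 3, against 3.28 and 2.83 in normal replicates 2 and 3. Cidea itself was at 46.7 CPM there, against 29.8 and 20.4 CPM. The overlap thus came from the level of the list. This scale takes each gene to follow the list in full, which was not tested for Cidea. Of the 9 listed genes, Adig was at 0 in 6 libraries, Acvr1c in 2 and Mrap in 1.

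Lipolysis, the release of fatty acids from the droplet, was covered by 20 further genes, and 0 of 20 were called in any comparison. For this list and those below, the share of all genes called by edgeR was 0.0581% at 1 h and 0.0904% at 4 h. It was 0% at 4 h against 1 h and 0.0388% with the 3 groups together. The median log2 fold change was 0.55 at 1 h and -0.0012 at 4 h. The number with an unadjusted p under 0.05 by edgeR was 1 of 20 in each, against 16.7% and 12.4% of all genes. That gene was Adrb1, named after its values were seen, which codes for the beta-1 adrenergic receptor. It had 4 to 9 counts in the normal libraries, 26 to 64 at 1 h and 29 to 46 at 4 h, a log2 fold change of 2.57 (SE 0.50, edgeR adjusted p = 0.145) and 2.48 (SE 0.50, edgeR adjusted p = 0.102). Pnpla2, the lipase that takes the first fatty acid off triglyceride, was at 12.99, 15.3 and 5.47 CPM in the normal group, 17.0, 12.6 and 26.6 CPM at 1 h, and 12.5, 13.5 and 11.8 CPM at 4 h. Its activator Abhd5 was at 0.06 at 1 h and -0.36 at 4 h on the log2 fold scale, the enzyme Mgll of the last step at 0.09 and -0.20, and the Pnpla2 inhibitor G0s2 at 0.56 and -0.52.

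Of the 20 genes of fatty acid and triglyceride synthesis, 18 were tested and 0 were called, with medians of 0.58 at 1 h and -0.23 at 4 h. Acly, which makes cytosolic acetyl-CoA from citrate, was at 114, 56.8 and 107 CPM in the normal group, 551, 116 and 504 CPM at 1 h, and 48.1, 63.2 and 525 CPM at 4 h. Its groups did not overlap at 1 h (log2 fold change 2.07, SE 0.97, edgeR adjusted p = 0.311), and its 3 high libraries were the ones rich in nerve transcripts. Fatty acid synthase Fasn was at 0.55 at 1 h and -0.23 at 4 h, the desaturase Scd at 0.53 and -0.24, and Dgat2, which adds the last fatty acid to triglyceride, at 0.32 and -1.06. Pck1, which supplies glycerol for triglyceride in fat cells, was lowest in normal replicate 3 with 2.36 CPM and highest in 1 h replicate 1 with 412 CPM.

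Lipid uptake was covered by 10 genes, of which 0 were called. Lpl, the lipase that frees fatty acids from lipoproteins, was at 347, 155 and 124 CPM in the normal group, 703, 168 and 478 CPM at 1 h, and 113, 220 and 237 CPM at 4 h. The fatty acid transporter Cd36 had log2 fold changes of 0.22 at 1 h and -0.36 at 4 h, and the Lpl inhibitor Angptl4 had 0.80 and 0.74.

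Of 22 genes of the thermogenic program of brown fat, 21 were in the table, 16 were tested and 0 were called. Zic1, a marker of classical brown fat, was at 0 in all 9 libraries. The elongase Elovl3 had 4 counts in normal replicate 1 and none elsewhere, and Cox8b, a respiratory chain subunit of brown fat, had 39 counts in 1 h replicate 1, 7 in 1 h replicate 2 and at most 1 in the others. Neither passed the filter. Dio2, which activates thyroid hormone, had at most 2 counts in a normal library. At 1 h it had 40, 33 and 23 counts, and at 4 h it had 1, 0 and 45. The normal counts lie under the floor of 3, so no fold change is given (edgeR adjusted p = 0.273 at 1 h). Ppargc1a, the coactivator of mitochondrial genes, was at 0.55 at 1 h and -0.12 at 4 h, and Prdm16, a brown fat regulator that other cells of the artery also use, was at -0.29 and 0.28.

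Among 20 transcription factors of fat cell differentiation, 0 were called, while 6 of 20 at 1 h and 8 of 20 at 4 h had an unadjusted p under 0.05, beside 16.7% and 12.4% of all genes. The early factor Cebpb was at 13.7, 32.0 and 32.9 CPM in the normal group, 223, 281 and 111 CPM at 1 h, and 335, 388 and 193 CPM at 4 h. None of its groups after ischemia overlapped with the normal group, and the log2 fold change was 2.97 (SE 0.49, edgeR adjusted p = 0.117) at 1 h and 3.54 (SE 0.50, edgeR adjusted p = 0.0614) at 4 h. Cebpd, its partner early in differentiation, was at 1.84 (SE 0.43, edgeR adjusted p = 0.188) and 1.24 (SE 0.42, edgeR adjusted p = 0.289), also without overlap. Both factors respond to stress in many cell types and are not specific to fat. Cebpa, which acts with Pparg in the mature fat cell, was at 35.4, 10.9 and 2.81 CPM in the normal group, 23.4, 3.01 and 25.4 CPM at 1 h, and 1.16, 5.06 and 13.4 CPM at 4 h, with the 3 libraries high in Adipoq on top. Klf15, a glucocorticoid-responsive factor of lipid metabolism, was at -0.43 at 1 h and 0.25 at 4 h on the log2 fold scale.

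Among secreted adipokines, 17 of the 19 genes in the table were tested and 0 were called. An unadjusted p under 0.05 by edgeR was found for 5 of 17 at 1 h and 4 of 17 at 4 h, where 16.7% and 12.4% of all genes had one. Resistin, from Retn, was at 28.7, 5.40 and 4.65 CPM in the normal group, 21.2, 3.14 and 59.0 CPM at 1 h, and 5.54, 10.8 and 12.9 CPM at 4 h, high in the same 3 libraries as Adipoq. Nampt, an enzyme of NAD synthesis that is also secreted, was at 67.6, 88.7 and 68.7 CPM in the normal group, 99.6, 195 and 208 CPM at 1 h, and 106, 115 and 145 CPM at 4 h. It lay above the normal libraries in every library after ischemia, with log2 fold changes of 1.16 (SE 0.29, edgeR adjusted p = 0.210) and 0.70 (SE 0.29, edgeR adjusted p = 0.379). Of 15 genes of fat cell progenitors, 14 were tested and 0 were called, with a median log2 fold change of -0.14 at 1 h and -0.16 at 4 h. These medians hide opposed changes. By edgeR, 4 of 14 at 1 h and 3 of 14 at 4 h had an unadjusted p under 0.05, beside 16.7% and 12.4% of all genes. At 1 h these were Icam1 (log2 fold change 2.86) and Cd55 (2.19), which were higher, and Cd34 (-1.06) and Wnt2 (-1.84), which were lower.

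Among 10437 other genes with a mean of at least 5 CPM, those whose log2 CPM correlated most with Adipoq over the 9 libraries were C2 (r = 0.961), Agpat2 (0.948), Ttc21b (0.936), Lgals9 (0.934) and Lactb (0.932). C2 codes for a complement component, and Agpat2 for an acyltransferase of triglyceride synthesis that also stood in the list of fat cell genes used as a score. The closest to Ucp1 were Lphn1 (0.970), Ptpra (0.965), Pgs1 (0.963), Ap2a2 (0.962) and Kidins220 (0.962). Lphn1, a latrophilin of synapses, was at 143 CPM in 1 h replicate 1, 104 CPM in 1 h replicate 3 and 135 CPM in 4 h replicate 3, and at 42.1 to 59.6 CPM in the other 6 libraries. These correlations were the highest of many and are a description with no test.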

How the data were processed

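RNA of 9 SMA libraries was extracted with Trizol and sequenced after an Illumina preparation, per the labels. The authors deposited raw counts per gene symbol in 1 table, and the submitters' processing notes name HISAT2. The counting program, genome build, annotation and use of strand are not given in the sources used here, and the study also describes arrays for these samples, so how the counts were made is not fully known. Libraries were treated as separate rats, as the series description gives 3 rats a group. The methods, however, speak of 3 individuals for all 9 libraries. They also state that rats were killed at the end of ischemia and that the SMA was then taken. The same rat could therefore not give arteries of all 3 groups. The unpaired p-values measure the spread between these libraries.

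The 10 genes, the gene lists and the tests were chosen with earlier results of these data known. The genes named were all 10, a set of genes per list chosen by role, any list gene called, and the 5 genes most like Adipoq and Ucp1. Counts were filtered with filterByExpr, scaled with TMM and tested with edgeR 4.0.16 in R 4.3.3 (glmQLFit and glmQLFTest on all 9 libraries, group only), with Benjamini-Hochberg adjustment over 15482 genes. The count test replaced the F-test for array ratios that the study names. SEs were taken as |log2 fold change| over root F. Log2 CPM used a prior count of 2. The test was tried on simulated counts first. DESeq2 1.42.0, other scalings, no filter, a replicate block, only the groups compared, covariates for fat and nerve content and leaving out each library were alternatives. Of the list genes, 4 stood in the table under an older symbol, matched with the RefSeq gene table. No library was a copy of another (lowest chi-square per degree of freedom 29.9).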

Additional observations from a re-analysis of the deposited data

How the results depend on the processing

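In all comparisons, 0 of the 10 genes were called by edgeR under every alternative, and DESeq2 called 1 at 4 h against normal and 1 with the 3 groups together, which was Cidea in both (log2 fold change 1.72, adjusted p = 0.00540). DESeq2 gave Ucp1 no adjusted p, so its counts of calls rest on the other genes. With only the groups compared in the fit, 9 of the 10 genes passed the filter at 1 h and at 4 h against normal. Over all genes, edgeR called 9 genes at 1 h, 14 at 4 h and 6 with 3 groups together, DESeq2 702, 610 and 669, the fit with the fat score 31, 89 and 41, and the fit with the nerve score 17, 104 and 30. The groups compared alone gave 4 and 4, and no filter gave 12, 13 and 11. Relative log expression factors gave 9, 14 and 4. Leaving out 1 library gave 0 to 11, 1 to 14 and 0 to 7. No alternative called a gene at 4 h against 1 h. With 3 libraries a group and a spread between libraries of 5.11-fold to 23.1-fold for the 8 genes counted in every library (Lep and Ucp1 had libraries at 0), small changes were not detectable.

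Of the log2 fold changes of the 10 genes under alternatives, 461 kept their direction and their side of the threshold, 1 became a call (Cidea, above) and 45 reversed, and the cause was not tested. With the fat score at 1 h they were Adipoq -0.43, Plin1 -0.55, Fabp4 -0.092, Cidec -0.27, Cfd -0.84 and Pparg -0.52, at 4 h Fabp4 0.062 and Lipe 0.49, and at 4 h against 1 h Adipoq 0.15, Plin1 0.057, Fabp4 0.15, Ucp1 4.28, Cfd 0.35, Lipe 0.15 and Pparg 0.12. With the nerve score at 1 h they were Adipoq -0.35, Plin1 -0.51, Fabp4 -0.14, Cidec -0.21, Cfd -0.72 and Pparg -0.34, at 4 h Lipe 0.064, and at 4 h against 1 h Lep 0.075 and Cfd 0.088. Lipe at 4 h was 0.017 with relative log expression factors and with DESeq2. Leaving out 1 library gave ranges at 1 h of -0.27 to 1.18 for Cfd, -0.24 to 2.27 for Cidec and -0.39 to 1.44 for Pparg, at 4 h of -1.12 to 0.34 for Adipoq, -1.25 to 0.17 for Cfd, -1.87 to 0.16 for Cidec, -0.90 to 0.79 for Fabp4, -0.45 to 1.11 for Lipe, -2.30 to 0.44 for Plin1 and -1.54 to 0.16 for Pparg, and at 4 h against 1 h of -11.73 to 3.07 for Ucp1, where 1 h replicate 1 or 4 h replicate 3 decides the sign. The median over all genes was -0.15 at 4 h and -0.24 at 4 h against 1 h with library size alone, and the 10 genes lay at -0.72 and -0.95 relative to it.

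With the replicate number as a block, 0 of 10 genes were called in each comparison, all genes gave 7, 7 and 0 calls, and Lipe at 4 h was 0.28. Of the same-numbered pairs, 4 of 9 had a correlation of deviations over 0.1 (from -0.65 to 0.66), and 4 of 9 libraries correlated best with 1 of their own number. Tissue makeup varied within groups and enters these deviations, so this check cannot decide whether the numbers pair the libraries.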

Other observations

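Chosen after the values were seen, the genes closest to Cidea over the 9 libraries were Pacs1 (r = 0.967), Trnl1 (0.963), Ociad1 (0.931), Trnr (0.931) and Smad7 (0.926), among the same genes with a mean of at least 5 CPM. Trnl1 and Trnr are symbols of transfer RNA genes. The closest to Lep were Tceal8 (0.983), Ldha (0.966), Stx7 (0.923), Hhipl1 (0.922) and Cd44 (0.915). Ldha codes for lactate dehydrogenase A, the enzyme of the last step of anaerobic glycolysis. These values are the highest of many and carry no test.

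Pancreas and lymphocyte transcripts, from tissues that also lie beside the SMA, varied between libraries. The exocrine pancreas genes summed to 16.5 to 67.6 CPM in the normal group, 5.49 to 197 CPM at 1 h and 8.27 to 164 CPM at 4 h. The lymphocyte genes summed to 3.25 to 35.0 CPM, 9.57 to 77.7 CPM and 5.71 to 15.6 CPM in these groups. Only 1 of these 12 genes was tested, and 8 were at 0 in 1 h replicate 2 against 1 in 1 h replicate 3. At 4 h, Cxcr5 alone held 5.13 to 13.8 CPM of the lymphocyte sum. The skeletal muscle genes summed to 30.0 to 174 CPM, 33.5 to 112 CPM and 55.9 to 209 CPM. Most of this was Acta1, at 16.2 to 134 CPM, 22.5 to 89.7 CPM and 40.1 to 145 CPM. These sums therefore rest on few genes in many libraries and do not measure the named cells.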
